A study of Mus musculus with 9 samples.

Results

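The cytosolic ribosomal protein genes are the genes for the protein part of the ribosome of the cytoplasm. They were taken as every symbol made of Rpl or Rps and a number, with the letters a, x, y or l allowed after it, together with Rplp0, Rplp1 and Rplp2, and pseudogenes named -ps were left out. The rule found 83 of the 21470 genes in the table. Of these, 43 belong to the large (60S) subunit and 30 to the small (40S) subunit, 3 form the P-stalk of the large subunit, and 7 carry a symbol that ends in l or l1 and names a paralogue or copy of another member (Rpl3l, Rpl6l, Rpl7l1, Rpl22l1, Rpl32l, Rpl39l and Rps27l). Rpl10l and Rps4l were not analysed here.

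Ribosomal proteins are made in near-equal numbers and join ribosomal RNA in the nucleolus, so their mRNAs are among the steadiest and most abundant of most cells. Most of these mRNAs start with a C and a run of pyrimidines, the 5′ terminal oligopyrimidine (TOP) motif, through which the kinase mTORC1 and the RNA-binding protein LARP1 control their translation and stability. In liver they serve a tissue that exports much of what it translates.

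The samples were whole mouse liver in 3 groups of 3 libraries. BDL+LIG mice had their bile duct ligated, which blocks bile flow and leads to fibrosis, and received ligustilide (LIG), a phthalide of Angelica and Ligusticum roots. BDL mice had the ligation alone, and sham mice were operated on without it. The dose is unclear: it is 10 mg/kg in the design text, but the number 20 stands in the titles of the LIG libraries. The labels give no strain, sex, age or time, and nothing in them says that each library came from its own mouse, so p-values measure no more than the variation among the libraries, which could be technical. In bulk liver, fewer cells of a type and less RNA per cell cannot be told apart.

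Values are FPKM, fragments scaled to gene length and library depth, in the form the authors deposited. The libraries held 34815965 to 40780517 fragments, recovered as whole numbers from the FPKM steps. Differences are on the log2(FPKM + 1) scale with their standard error (SE), from limma fitted to the 10142 genes that reached 1 FPKM in 3 or more libraries. A gene is called where limma's p, adjusted by Benjamini and Hochberg over those genes, was under 0.05. Of the 83 genes 81 entered the test, and Rpl3l and Rpl39l did not. The genes are short, with a median length of 795 bases over the 81 tested genes against 3189 bases over all tested genes. They were therefore also set beside the 3313 other tested genes of like length (434 to 2343 bases, the 5th to 95th percentile of the tested ribosomal protein genes), a range that held 73 of the 81. These 3313 genes were longer than most members, with a median length of 1558 bases.

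The start of the mRNA is where the TOP motif lies, so the genomic windows around the RefSeq transcription starts are shown for the genes called in BDL+LIG against BDL or in BDL against sham that had an entry, and for Rps6. Each window has 30 bases on the gene's strand (GRCm38.p6), 15 before the annotated start and 15 from it, and capitals mark the longest run of at least 5 pyrimidines.
Rpl26, chr11:68901551-68901580, plus strand: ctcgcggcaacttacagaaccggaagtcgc
Rpl22l1, chr3:28805493-28805522, plus strand: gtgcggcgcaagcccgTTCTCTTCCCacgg
Rpl23, chr11:97782425-97782454, minus strand: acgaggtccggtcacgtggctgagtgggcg
Rps24, chr14:24490663-24490692, plus strand: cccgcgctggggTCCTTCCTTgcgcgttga
Rplp0, chr5:115559452-115559481, plus strand: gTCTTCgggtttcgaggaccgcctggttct
Rpl4, chr9:64173372-64173401, plus strand: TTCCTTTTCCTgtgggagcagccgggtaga
Rps12, chr10:23787195-23787224, minus strand: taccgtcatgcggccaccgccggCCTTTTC
Rpl9, chr5:65391417-65391446, minus strand: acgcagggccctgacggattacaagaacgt
Rpl10a, chr17:28328456-28328485, plus strand: gtggcgCCCCCCCagcggccgcaaactgca
Rps6, chr4:86857353-86857382, minus strand: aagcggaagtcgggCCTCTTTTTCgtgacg
Rps24 and Rpl10a have a further annotated start each that is not shown. In Rpl22l1, Rps24 and Rps6 the run lies at or next to the annotated start. In Rplp0 the run ends well before the start, and in Rpl4 it begins at the window's edge and ends shortly before the start. In Rpl26, Rpl23 and Rpl9 no run of that length lies in the window. RefSeq held 74 starts for 62 of the 83 genes. A C followed by at least 4 pyrimidines exactly at the annotated start was found at 18.9% of the 74 starts and at 2.47% of the 32777 other starts. Allowing the C and at least 6 pyrimidines anywhere within 25 bases of the start gave 54.1% and 22.7%. In the 250 bases before the start, the motif CCGGAAG or its reverse complement, the core bound by ETS factors, was present for 25.7% of the ribosomal protein starts and 6.86% of the others. TATAAA or its reverse complement was present for 6.76% and 12.4%. These matches describe annotated sequence and are no measure of binding.

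Ribosomal protein mRNAs were abundant in every library. The mean over the 9 libraries was at least 100 FPKM for 70 of the 83 genes. Rplp1, an acidic stalk protein, had the highest mean (1159 FPKM), followed by Rpl41 (1060 FPKM), the shortest ribosomal protein, Rps18 (774 FPKM), Rpl10 (763 FPKM), Rpl28 (747 FPKM) and Rps14 (634 FPKM). The lowest means were those of Rpl3l (0.0130 FPKM), the muscle paralogue of Rpl3, Rpl39l (0.101 FPKM), the testis paralogue of Rpl39, Rpl32l (0.800 FPKM), Rpl7l1 (22.2 FPKM), Rps15a (22.6 FPKM) and Rpl6l (24.6 FPKM). FPKM divide by the length that was used for a gene. For Rps15a, an essential 40S protein with a coding length of 390 bases, that length was 5136 bases, and for Rps20 it was 3446 bases, so their low FPKM are not comparable with those of genes counted on their short mRNA. By fragments the first gene was Rplp0, which ranked 20 by FPKM.

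The members' levels by library are shown in the plot of all genes by library. Relative to each gene's mean over the 9 libraries, the median member lay at -0.16, -0.11 and -0.06 in the BDL+LIG libraries, at 0.13, 0.14 and 0.16 in the BDL libraries and at -0.38, 0.09 and 0.20 in the sham libraries on the log2 scale. The BDL libraries were close together, the BDL+LIG libraries lay below them, and the sham libraries spanned both. Sham library 1 was the lowest of the 9 libraries for 49 of the 81 tested genes and sham library 3 was the highest for 38. The median SD of a ribosomal protein gene within a group was 0.11 in BDL+LIG, 0.04 in BDL and 0.32 in sham, against 0.15, 0.10 and 0.25 for all tested genes. Sham library 1 thus stood apart for these genes, and calls and medians against sham are given below also without it.

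**Figure D1:**
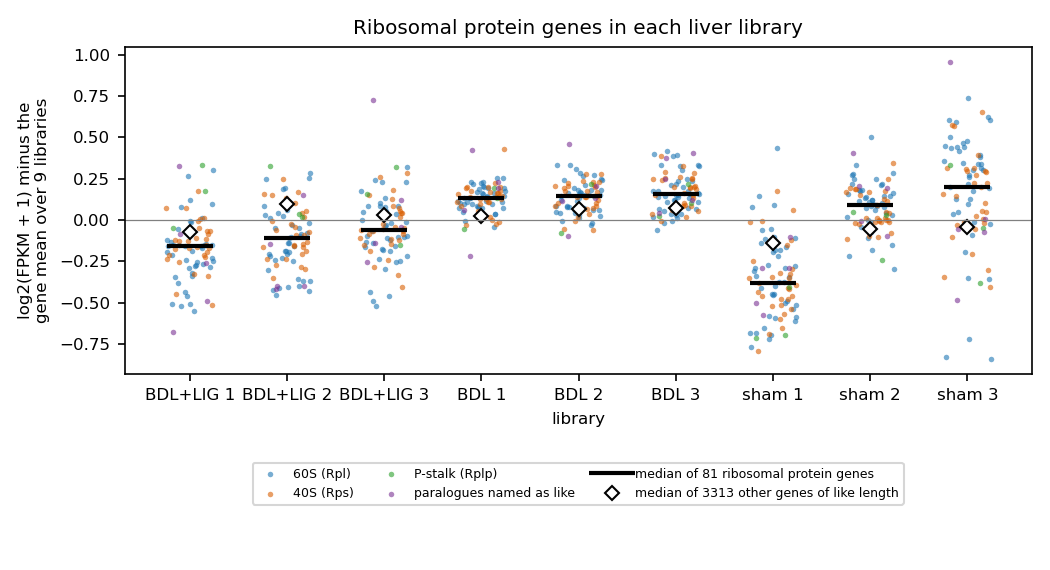
Each point is a ribosomal protein gene, plotted by library as log2(FPKM + 1) less the gene's mean over the 9 libraries; bars are the median of the 81 genes and diamonds the median of the 3313 other genes of like length. The median member lies between -0.16 and -0.06 in BDL+LIG, between 0.13 and 0.16 in BDL, and at -0.38 in sham library 1.

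As a share of the summed FPKM the 83 genes took 4.78, 4.82 and 4.92% in the BDL+LIG libraries, 4.97, 5.03 and 5.16% in the BDL libraries and 3.64, 4.55 and 4.68% in the sham libraries. The 3 groups did not overlap. The means were 4.84 ± 0.07% in BDL+LIG, 5.05 ± 0.10% in BDL and 4.29 ± 0.57% in sham (SD, n = 3 each). In an exact two-sided permutation test each of the 3 comparisons gave p = 0.1, the smallest p that 3 libraries against 3 can give. By fragments, which do not weight short genes up, the shares were 1.91 ± 0.07% in BDL+LIG, 2.21 ± 0.03% in BDL and 1.98 ± 0.37% in sham. On that scale the BDL+LIG share was 0.31 percentage points below BDL (exact permutation p = 0.1) and 0.08 below sham (p = 0.8), and the BDL share was 0.23 above sham (p = 0.4). Without sham library 1 the share of summed FPKM in BDL exceeded that in sham by 0.44 in place of 0.76 percentage points, and in BDL+LIG by 0.22 in place of 0.55. Without the 20 most abundant genes in the total BDL+LIG exceeded sham by 0.22 percentage points (exact permutation p = 0.8) and BDL exceeded sham by 0.63 (exact permutation p = 0.4).

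The comparison of BDL+LIG with BDL asks what ligustilide changed in ligated livers. In limma's test 10 of the 81 genes fell and 0 rose, where 1.79% of all tested genes were called lower and 9.98% higher (11.8% together). Among those that fell were Rpl21, Rpl26, Rpl22l1, Rpl7, Rpl6l, Rpl23, Rpl30 and Rps24, by 0.50 to 0.81 on the log2 scale. The median difference was -0.25 over the 81 genes, 0.18 over all tested genes and -0.03 over the other genes of like length, of which 4.01% were called lower. The difference was negative for 69 of the 81 genes. For 52 of them all 3 BDL+LIG libraries lay below all 3 BDL libraries and for 3 above, where 10.5% of all tested genes and 21.6% of those of like length lay apart on the lower side, and 40.7% and 15.1% on the higher side. The 52 are 64.2% of the members. Among other genes with a mean of at least 50 FPKM the share apart on the lower side was 38.5% over the like lengths, 63.6% under 500 bases and 66.3% from 500 to 749 bases, near that of the members. At an unadjusted p under 0.05, limma gave 25 lower and 0 higher genes, and voom on the recovered fragments called 12 lower and 0 higher.

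**Figure D2:**
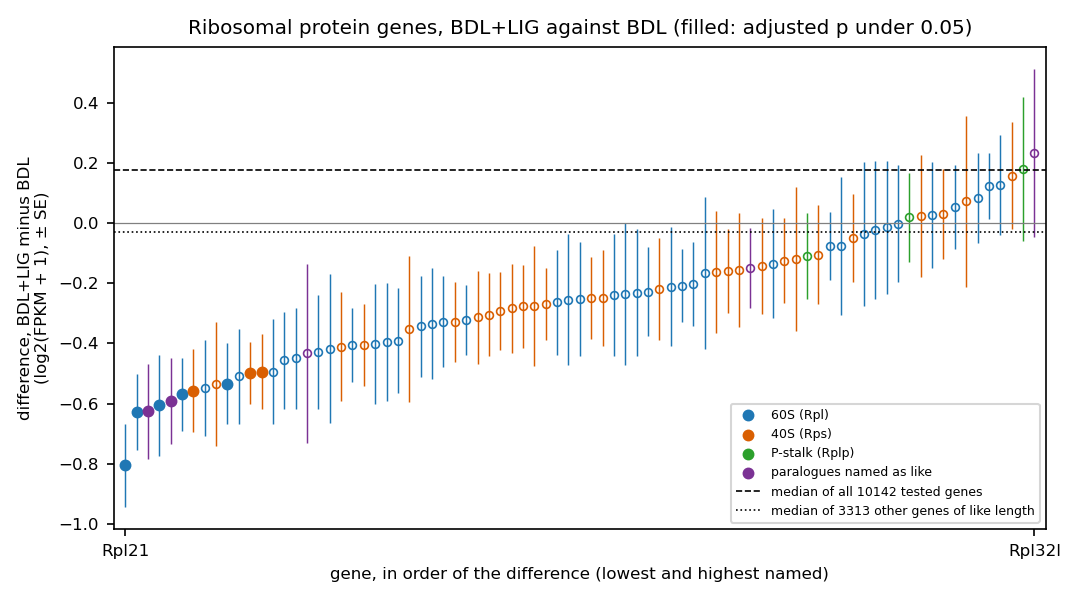
Each of the 81 tested genes is plotted by its difference in log2(FPKM + 1), BDL+LIG minus BDL, with its SE; filled points have an adjusted p under 0.05. The differences run from -0.81 (Rpl21) to 0.23 (Rpl32l), and most lie below the median of all tested genes (0.18, dashed) and that of the other genes of like length (-0.03, dotted).

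Among the 43 genes of the large subunit 5 fell (11.6%) and 30 lay wholly below BDL (69.8%), where 1.79% and 10.5% of all tested genes did. Of other genes with a mean of at least 50 FPKM, 63.6% lay wholly below BDL under 500 bases. That share was 66.3% from 500 to 749 bases and 52.1% from 750 to 999 bases. Rpl21 had 29.0, 31.2 and 28.9 FPKM in the BDL+LIG libraries, against 48.9, 53.0 and 56.3 FPKM in the BDL libraries. The highest BDL+LIG library was well below the lowest BDL library, and the difference was -0.81 ± 0.14 (SE, limma adjusted p = 0.0131). Rpl26, which lies at the exit of the nascent peptide tunnel and in human cells also binds p53 mRNA, had 350, 331 and 328 FPKM in BDL+LIG and 479, 525 and 560 FPKM in BDL (difference -0.63 ± 0.13, adjusted p = 0.0186). Again the groups were wide apart. Rpl23, a protein of the subunit interface that can bind MDM2, had 167, 202 and 204 FPKM in BDL+LIG and 262, 285 and 301 FPKM in BDL (-0.57 ± 0.12, adjusted p = 0.0212). Rpl30, which joins a bridge between the subunits, had 179, 156 and 180 FPKM in BDL+LIG and 232, 250 and 265 FPKM in BDL (-0.53 ± 0.14, adjusted p = 0.0337). Rpl7 varied more within the treated group, with 178, 243 and 189 FPKM in BDL+LIG against 283, 314 and 328 FPKM in BDL, yet did not overlap (-0.61 ± 0.17, adjusted p = 0.0448). Rpl28 lay just outside the threshold, with 658, 533 and 521 FPKM in BDL+LIG and 860, 821 and 810 FPKM in BDL (-0.55 ± 0.16, adjusted p = 0.0511).

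Not every large-subunit member with a role outside the ribosome passed the test. Rpl5 and Rpl11 carry 5S RNA into the ribosome and, when free, hold MDM2 in check. Rpl5 had 84.0, 111 and 97.2 FPKM in BDL+LIG and 101, 118 and 124 FPKM in BDL, which overlap (-0.23 ± 0.21, adjusted p = 0.470). Rpl11 had 129, 158 and 171 FPKM in BDL+LIG and 196, 203 and 203 FPKM in BDL, without overlap (-0.40 ± 0.20, adjusted p = 0.191). Rpl13a, which in human monocytes joins a complex that silences inflammatory mRNAs, differed by -0.08 ± 0.23 (adjusted p = 0.836), with 456, 548 and 579 FPKM in BDL+LIG and 570, 556 and 536 FPKM in BDL.

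Among the 30 genes of the small subunit 3 fell (10%) and 19 lay wholly below BDL (63.3%), where 1.79% and 10.5% of all tested genes did. Rps24, which is mutated in Diamond-Blackfan anaemia in humans, had 124, 122 and 121 FPKM in BDL+LIG and 167, 172 and 181 FPKM in BDL, a difference of -0.50 ± 0.10 (SE, limma adjusted p = 0.020). The groups were clearly apart, and the libraries of each lay close together. Rps6, the substrate of the S6 kinases, had 199, 191 and 202 FPKM in BDL+LIG and 231, 245 and 238 FPKM in BDL. These groups did not overlap, but the difference was not called (-0.27 ± 0.12, adjusted p = 0.153). Rps27a, made as a fusion with ubiquitin, ranged over 140, 191 and 245 FPKM in BDL+LIG and 270, 244 and 208 FPKM in BDL, which overlap (-0.35 ± 0.24, adjusted p = 0.335).

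The stalk genes did not follow the rest. Rplp0, the anchor of the stalk that recruits elongation factors, had 558, 455 and 554 FPKM in BDL+LIG and 508, 516 and 515 FPKM in BDL (difference 0.02 ± 0.15, limma adjusted p = 0.938). Rplp1 had 1099, 1426 and 1269 FPKM in BDL+LIG and 1096, 1079 and 1158 FPKM in BDL (0.18 ± 0.24, adjusted p = 0.635), and Rplp2 differed by -0.11 ± 0.14 (adjusted p = 0.629). All 3 overlapped between the groups. The only members whose BDL+LIG libraries all exceeded BDL were Rps3, Rpl8 and Rpl41, named here after their values were seen, with differences of 0.16, 0.08 and 0.13 and adjusted p of 0.565 to 0.724. Rpl41 had 1252, 1190 and 1221 FPKM in BDL+LIG and 1100, 1126 and 1130 FPKM in BDL. Whether the stalk differs from the other members was not tested.

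Of the 7 paralogues and copies, 5 were tested and 2 fell, where 1.79% of all tested genes did. Rpl22l1, whose mRNA is repressed by its paralogue Rpl22 in mouse, had 46.7, 37.4 and 44.9 FPKM in BDL+LIG and 66.7, 68.4 and 64.6 FPKM in BDL (difference -0.62 ± 0.16, limma adjusted p = 0.0337). Its sham libraries held 32.9, 49.3 and 47.6 FPKM, so that the BDL+LIG libraries lay within the sham range and the BDL libraries above it. Rpl22 itself had 54.3, 56.9 and 64.1 FPKM in BDL+LIG and 61.9, 63.1 and 67.4 FPKM in BDL, which overlap (-0.13 ± 0.18, adjusted p = 0.636). Rpl6l had 16.9, 18.1 and 23.4 FPKM in BDL+LIG and 28.5, 28.0 and 32.3 FPKM in BDL, without overlap (-0.59 ± 0.14, adjusted p = 0.0293). Rps27l, a p53 target in human cells, had 37.3, 54.3 and 50.5 FPKM in BDL+LIG and 63.0, 65.4 and 62.2 FPKM in BDL (-0.43 ± 0.30, adjusted p = 0.337), while its sham libraries ran over 42.3, 80.0 and 118 FPKM. Rps27 overlapped (-0.12 ± 0.24, adjusted p = 0.755), as did Rpl7l1 (-0.15 ± 0.13, adjusted p = 0.459). Rpl3l held 0 to 6 fragments in a library and Rpl39l 0 to 10, against 5421 to 13846 for Rpl3 and 2229 to 4982 for Rpl39. How fragments shared by near-identical copies, and by the many ribosomal protein pseudogenes, were divided is not stated, so levels of single members are uncertain to that extent. The 8 pseudogenes in the table summed to 12.6 to 16.6 FPKM per library in BDL+LIG, 15.9 to 18.7 FPKM in BDL and 9.51 to 18.1 FPKM in sham.

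**Figure D3:**
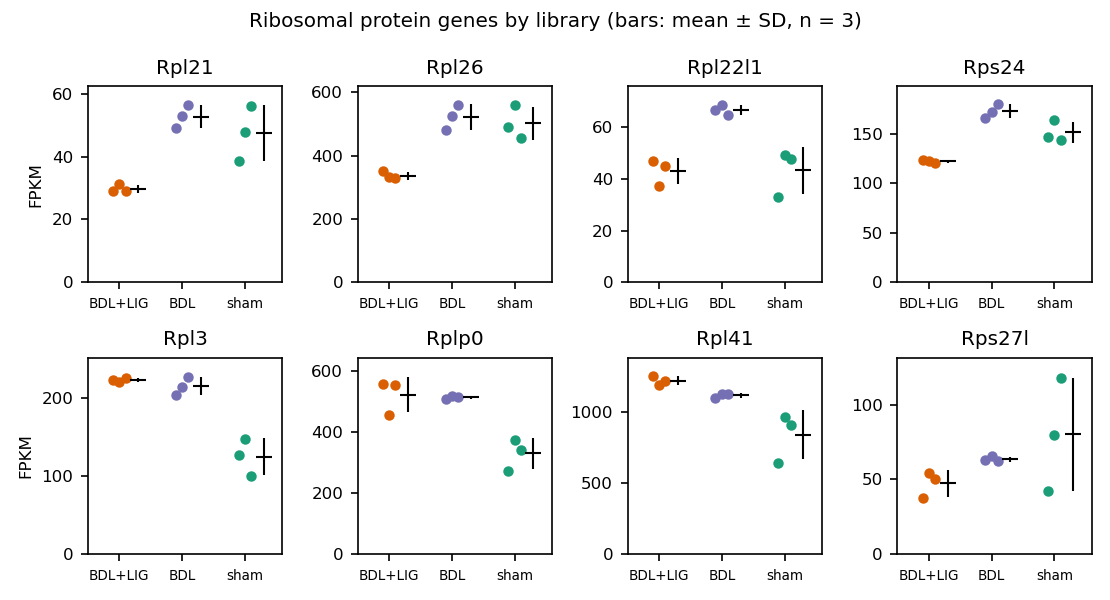
FPKM of 8 ribosomal protein genes in each library of BDL+LIG, BDL and sham, from 0, with the mean ± SD (n = 3) at the side of the points. Rpl21, Rpl26 and Rps24 are low in all 3 BDL+LIG libraries, Rpl22l1 is high in BDL, Rpl3, Rplp0 and Rpl41 are low in sham, and Rps27l spans 42.3 to 118 FPKM in sham.

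The calls in this comparison rested on all 3 libraries of each group. Without BDL+LIG library 1, 2 or 3 limma called 3, 1 and 2 members lower, and without BDL library 1, 2 or 3 it called 0. In the last 3 fits 40, 0 and 68 genes of the whole table were called, and 15 to 17 members were lower and 0 higher at an unadjusted p under 0.05. Without sham library 1, which enters through the shared spread, 33 members were called lower, without sham library 3 16, and with the BDL+LIG and BDL libraries alone 37. Calls over the whole table rose as well in these fits. Of all tested genes 5.15%, 2.81% and 5.97% were called lower there, and 26.1%, 14.7% and 27.9% higher. The median of the members kept to -0.28 to -0.24 in all fits that left out a library. Scaling moved the median of all tested genes to between 0.00 and 0.33. The members' median less that of all tested genes was -0.43 as deposited and as TPM, -0.48 with median-of-ratios scaling, -0.40 without the 20 most abundant genes in the total and -0.16 with quantile normalization.

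Short genes as a class had lower medians in BDL+LIG than long ones, and the members were set beside them in classes of gene length. Under 500 bases the median difference was -0.23 for 14 ribosomal protein genes and -0.24 for 108 other genes. From 500 to 749 bases it was -0.25 for 23 members and -0.27 for 251 others. In these 2 classes the median of the members nearly coincided with that of other short genes. From 750 to 999 bases it was -0.28 for 15 members and -0.16 for 320 others, and from 1000 to 1499 bases -0.25 for 13 and -0.09 for 899. From 1500 to 2499 bases it was -0.28 for 12 members and 0.06 for 2108 others. The members' median was thus level over the classes, while that of the other genes was higher in the longer classes. Among other genes with a mean of at least 50 FPKM, a comparison added after the data were seen, the medians over the same 5 classes were -0.32, -0.32, -0.22, -0.16 and 0.00. Removing a length trend from each library left the members' median at -0.07, that of the genes of like length at 0.01, and 3 genes called lower (Rpl21, Rpl23 and Rps24) with 1 called higher (Rplp1). With quantile normalization the members' median was -0.16 and that of the genes of like length -0.15, so the gap to them was -0.01 in place of -0.22. What part of the lower level of the longer members comes from their coding length or abundance was not tested.

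**Figure D4:**
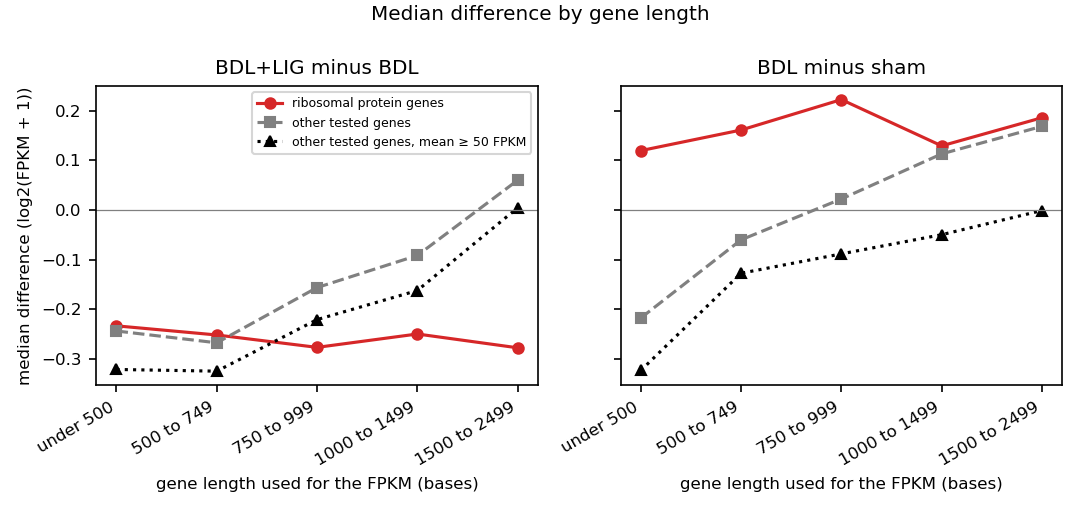
Median difference in log2(FPKM + 1) by class of gene length for ribosomal protein genes (12 to 23 per class), other tested genes, and other tested genes with a mean of at least 50 FPKM, for BDL+LIG minus BDL and BDL minus sham. For BDL+LIG minus BDL the members stay between -0.28 and -0.23 while other genes go from -0.24 in the shortest class to 0.06 in the longest.

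Members with and without a pyrimidine run near an annotated start had similar medians in this comparison. The median difference, BDL+LIG minus BDL, was -0.26 for the 36 tested members with the C and pyrimidine run within 25 bases of a start and -0.24 for the 24 without, a split added after the data were seen. All 3 BDL+LIG libraries were below BDL for 23 of the 36 and for 15 of the 24. The same run was found near 22.7% of the other starts, and the TOP motif lies at the start itself. This split therefore cannot separate TOP mRNAs from others.

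The comparison of BDL with sham measures the ligation. It shares the BDL libraries with the one above, so the same BDL values enter both. Here 7 of the 81 genes rose and 0 fell, where 22.9% of all tested genes were called higher and 6.76% lower (29.7% together). The 7 were Rpl3, Rplp0, Rpl22l1, Rpl4, Rps12, Rpl9 and Rpl10a. The median difference was 0.17 over the members, 0.16 over all tested genes and 0.11 over those of like length, so the gap to the genes of like length was 0.06 as deposited. That gap was 0.24 with quantile normalization, 0.18 after removal of a length trend and -0.10 without sham library 1. The gap to all tested genes was 0.01 as deposited and 0.25, 0.18 and -0.25 under these settings. With all libraries, the median under 500 bases was 0.12 for members and -0.22 for others, and from 500 to 749 bases 0.16 and -0.06. From 750 to 999 bases it was 0.22 and 0.02, from 1000 to 1499 0.13 and 0.11, and from 1500 to 2499 0.19 and 0.17. Other genes of like length with a mean of at least 50 FPKM had a median of -0.07, with 20.7% called higher and 21% lower. All 3 BDL libraries lay above sham for 24 of the 81 and below for 0, where 33.7% and 11.3% of all tested genes did. At an unadjusted p under 0.05 limma gave 16 higher and 0 lower members, and voom called 8 higher and 0 lower.

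Rpl3, a core protein next to the peptidyl transferase centre, had 205, 215 and 228 FPKM in BDL, against 127, 148 and 101 FPKM in sham. No library overlapped, and the difference was 0.80 ± 0.14 (SE, limma adjusted p = 0.00213). Rplp0 had 508, 516 and 515 FPKM in BDL and 273, 374 and 340 FPKM in sham (0.65 ± 0.15, adjusted p = 0.00804). Rpl4, which narrows the peptide exit tunnel, had 342, 356 and 384 FPKM in BDL and 311, 258 and 177 FPKM in sham (0.57 ± 0.19, adjusted p = 0.0406). Of the called genes, Rpl3, Rpl4, Rpl9 and Rpl10a had their lowest sham value in library 3. The sham libraries held 131, 143 and 117 FPKM for Rpl9 and 183, 200 and 173 FPKM for Rpl10a. In Rplp0, Rpl22l1 and Rps12 sham library 1 was the lowest. Most members were not ordered like the first 4 genes. Sham library 1 was the lowest of all libraries for 49 tested members, and sham library 3 for 8. Rps12, a protein of the 40S beak, differed by 0.44 ± 0.13 (adjusted p = 0.0287), Rpl9 by 0.35 ± 0.11 (0.0406) and Rpl10a, the protein of the L1 stalk, by 0.33 ± 0.11 (0.0467), and each was above sham in all 3 BDL libraries. Rpl22l1 rose by 0.63 ± 0.16 (adjusted p = 0.0130). Rpl5 lay just above the threshold (0.60 ± 0.21, adjusted p = 0.0550), with 101, 118 and 124 FPKM in BDL and 99.1, 80.4 and 52.5 FPKM in sham.

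Members with longer coding sequences tended towards larger differences between BDL and sham. By coding length, the median difference was 0.11 for 26 members under 400 bases, 0.16 for 30 of 400 to 599 bases and 0.25 for 23 of at least 600 bases, in classes added after the data were seen. Other genes of these classes had medians of 0.11, 0.16 and 0.17, and those of them with a mean of at least 50 FPKM -0.12, 0.06 and -0.01. Across the 79 tested members with a coding length, the difference had a Spearman's rho of 0.42 with it, and across 9557 other genes of -0.02. With the gene length used for the FPKM, rho across the tested members was 0.18. These are descriptions across genes of the same libraries, which are not independent replicates. Without sham library 1 the 3 medians became -0.11, -0.02 and 0.14, and those of other genes 0.02, 0.15 and 0.29.

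**Figure D5:**
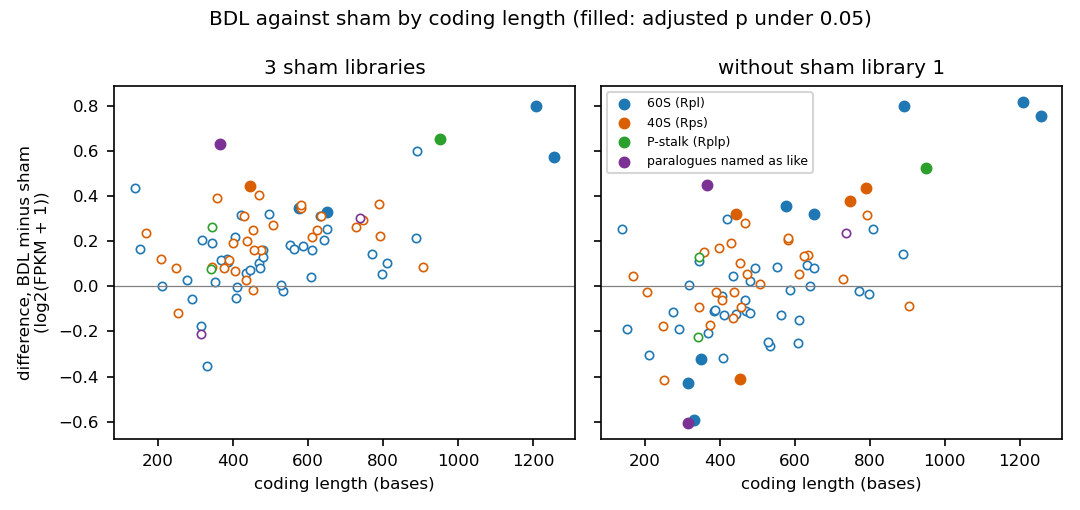
Difference in log2(FPKM + 1), BDL minus sham, of each ribosomal protein gene by its coding length in bases, with all sham libraries and without sham library 1; filled points have an adjusted p under 0.05. The genes with the longest coding sequences, Rpl3 and Rpl4, lie at 0.80 and 0.57 with all libraries and at 0.82 and 0.75 without sham library 1, and called genes below 0 appear without sham library 1 only.

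The median of this comparison depended on sham library 1 and on the scaling, and the calls on each sham library and on the scaling. Without sham library 1, 10 members were called higher and 5 lower, and the median was 0.01, against 0.25 for all tested genes and 0.10 for those of like length. Among all tested genes 37.2% were then called higher and 8.96% lower. The 10 were the 7 above with Rpl5 (0.80, adjusted p = 0.00780), Rps4x (0.44, adjusted p = 0.0248) and Rps6 (0.38, adjusted p = 0.0175), and the 5 were Rpl35a (-0.59, adjusted p = 0.00325), Rps27l (-0.61, adjusted p = 0.0258), Rpl36 (-0.43, adjusted p = 0.0201), Rps14 (-0.41, adjusted p = 0.0489) and Rpl34 (-0.32, adjusted p = 0.0383). Without sham library 2, 5 members were called higher, all of them among the 7 above. Without sham library 3 there were 6, with 4 of the 7 among them. Of all tested genes 16.9% and 19.5% were called higher in these fits. Without BDL library 1, 2 or 3 there were 3, 2 and 3 members called higher, and without BDL+LIG library 3 there were 4. With median-of-ratios scaling 1 (Rpl3) was called higher and the median was -0.08. Rescaling to TPM or quantile normalization gave 16 called higher, the 7 above among them, and the BDL and sham libraries alone gave 3 (Rpl3, Rplp0 and Rpl22l1).

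The third comparison sets BDL+LIG livers against sham. Of the 81 members 4 rose (4.94%) and 8 fell (9.88%), where 43.7% of all tested genes were called higher and 8.92% lower (52.6% together). The share of members called lower was thus near that of all tested genes. All 3 BDL+LIG libraries lay above sham for 7 members and below for 10, where 45.7% and 9.71% of all tested genes did. The median was -0.02 over the members, 0.34 over all tested genes and 0.07 over those of like length. Of those of like length 29.6% were called higher and 18.7% lower. Other genes of like length with a mean of at least 50 FPKM had a median of -0.19, below that of the members. Of these 19.6% were called higher and 34.9% lower. Under 500 bases the median was -0.08 for members and -0.44 for others, and from 500 to 749 bases -0.04 and -0.34. From 750 to 999 bases it was -0.06 and -0.17, from 1000 to 1499 -0.04 and -0.0007, and from 1500 to 2499 0.06 and 0.22. The members above sham were Rpl3 (0.85 ± 0.14, limma adjusted p = 0.000709), Rplp0 (0.67 ± 0.15, 0.00360), Rpl41 (0.56 ± 0.17, 0.0162) and Rpl10a (0.45 ± 0.11, 0.00627). Rpl3 had 223, 221 and 227 FPKM in BDL+LIG, against 127, 148 and 101 FPKM in sham, and Rpl41 1252, 1190 and 1221 FPKM in BDL+LIG, against 642, 964 and 912 FPKM in sham. Among the members below sham were Rpl35a (-0.78), Rpl21 (-0.64), Rpl26 (-0.57), Rpl28 (-0.55), Rpl7 (-0.50) and Rps24 (-0.31), with adjusted p of 0.00319 to 0.0292. Rpl35a, another gene mutated in human Diamond-Blackfan anaemia, had 244, 262 and 282 FPKM in BDL+LIG, against 323, 491 and 579 FPKM in sham. In each of the 12 called genes the libraries of the groups were apart. The sign of the members' median depended on scaling, at -0.50 with median-of-ratios scaling (35 called lower, 0 higher), 0.22 as TPM (2 lower, 16 higher), 0.04 with quantile normalization (6 lower, 10 higher) and -0.25 without sham library 1 (35 lower, 6 higher).

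Some ribosomal protein genes have symbols that fall outside the rule. Rpl36al, a paralogue of Rpl36a, had 122, 174 and 130 FPKM in BDL+LIG, 200, 203 and 203 FPKM in BDL and 200, 219 and 241 FPKM in sham. It fell in BDL+LIG against BDL (-0.52 ± 0.15, limma adjusted p = 0.0454) and against sham (-0.64 ± 0.15, adjusted p = 0.00428; -0.71 without sham library 1). Fau, made as a fusion with a ubiquitin-like protein, differed by -0.26 ± 0.19 between BDL+LIG and BDL (adjusted p = 0.364) and Rpsa, which is also known as the laminin receptor, by 0.00 ± 0.22 (adjusted p = 0.996).

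Other TOP mRNAs did not share one direction. Of 17 genes for translation factors and other known TOP mRNAs 4 rose (23.5%) and 2 fell (11.8%) in BDL+LIG against BDL. Of all tested genes 9.98% were called higher and 1.79% lower there. Eef2, the translocation factor, had 722, 624 and 663 FPKM in BDL+LIG, against 403, 400 and 411 FPKM in BDL, and rose by 0.72 ± 0.12 (limma adjusted p = 0.0131). Eif2s3x rose by 1.11 ± 0.17, Eif4b by 0.65 ± 0.14 and Pabpc1, the poly(A)-binding protein, by 0.37 ± 0.10, with adjusted p of 0.0102 to 0.0370. Eif3e (-0.56 ± 0.12, limma adjusted p = 0.0209) and Naca, a chaperone of nascent chains (-0.47 ± 0.11, adjusted p = 0.0265), fell. The median difference over the 17 was 0.08. These genes are longer than the members, with a median length of 1933 against 795 bases. From 1500 to 2499 bases the median was 0.06 for other tested genes and -0.28 for members. The part of length in the contrast with the members was not tested. In BDL against sham 3 of the 17 rose (Nap1l1 0.85, Eef1b2 0.62 and Eef1g 0.36) and 0 fell, and 17.6% higher is no more than the 22.9% of all tested genes. Of the 17, 4 rose without sham library 1, where 37.2% of all tested genes did, and Eef1g was no longer called (0.29, limma adjusted p = 0.0528). Of 9 host genes of small nucleolar RNAs, Gas5 fell in BDL+LIG against BDL, with 44.2, 32.0 and 42.3 FPKM in BDL+LIG and 56.0, 66.7 and 78.6 FPKM in BDL (-0.75 ± 0.18, adjusted p = 0.0283). Snhg8 fell in BDL against sham (-0.85 ± 0.18, adjusted p = 0.00571; -1.04 without sham library 1).

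Few genes of the machinery that builds ribosomes were called in BDL+LIG against BDL, where 11.8% of all tested genes were. Of 45 ribosome biogenesis genes 0 were called in BDL+LIG against BDL by limma and by voom, and their median was -0.05. At an unadjusted limma p under 0.05, 2 were lower and 0 higher. Without sham library 1, 3 were called lower and 0 higher, where 5.15% and 26.1% of all tested genes were. Of 12 genes of RNA polymerase I and its factors, which make the ribosomal RNA, 0 were called by limma and by voom (1 lower at an unadjusted p under 0.05), and of 8 chaperones of ribosomal proteins 1 rose (Ipo5, an import receptor, by 0.39 ± 0.11). In BDL against sham 3 of the 45 rose (6.67%, against 22.9% of all tested genes) and 0 fell, while without sham library 1 23 rose and 2 fell. Without that library 37.2% of all tested genes were called higher and 8.96% lower, so calls rose over the whole table as well. Rrs1, which loads the 5S particle, had 9.24, 10.6 and 11.2 FPKM in BDL and 5.63, 4.90 and 5.88 FPKM in sham (0.81 ± 0.12, limma adjusted p = 0.000936). Nolc1 (0.55 ± 0.16, adjusted p = 0.0229) and Gar1, of the pseudouridylation particle (0.48 ± 0.14, adjusted p = 0.0299), were the others, and all 3 were called without that library too. Of 26 genes that regulate mTORC1 signalling, TOP mRNAs or Myc, 6 rose in BDL+LIG against BDL (23.1%, against 9.98% of all tested genes) and 0 fell. Eif4ebp2, an inhibitor of cap-dependent translation, had 49.6, 45.5 and 38.2 FPKM in BDL+LIG against 12.3, 12.0 and 12.3 FPKM in BDL (1.78 ± 0.26, adjusted p = 0.00962). Larp1 had 20.4, 19.9 and 17.4 FPKM in BDL+LIG against 11.8, 11.1 and 11.0 FPKM in BDL (0.71 ± 0.14, adjusted p = 0.0186), and Rptor, the scaffold of mTORC1, rose by 0.62 ± 0.13 (adjusted p = 0.0207). These 26 genes are long, with a median length of 6684 bases. In BDL against sham 5 of the 26 rose (19.2%, against 22.9% of all tested genes), a share near the background. Among them were Ddit4, an mTORC1 inhibitor (2.47 ± 0.19, adjusted p = 1.23e-05), and Myc, an activator of ribosome synthesis (1.35 ± 0.32, adjusted p = 0.00996). These 5 and 1 more were called higher, and 1 lower, without sham library 1.

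Genes of other large complexes had medians close to that of the ribosomal protein genes in BDL+LIG against BDL. Of all tested genes 9.98% were called higher and 1.79% lower there. The median difference was -0.23 over 78 mitochondrial ribosomal protein genes (median length 1544 bases, 1 called higher, 6 lower) and -0.23 over 74 nuclear oxidative phosphorylation genes (759 bases, 1 higher, 4 lower). It was -0.20 over 37 proteasome genes (1436 bases, 0 higher, 2 lower) and -0.32 over 21 Sm and Lsm genes (856 bases, 0 higher, 3 lower). In BDL against sham their medians were -0.07, -0.37, 0.02 and 0.09, against 0.17 for the cytosolic ribosomal protein genes. Leaving out sham library 1 gave -0.13, -0.54, 0.00 and -0.07, against 0.01. The 5 genes outside the rule whose log2 values followed the mean of the members most closely over the 9 libraries were Atox1, Churc1, Nme2, Gng5 and Mrps36, with Pearson's r of 0.95 to 0.98. All are short, of 514 to 1168 bases, and the 9 values share their libraries and depth.

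Markers of other cell types moved between the groups. Of all tested genes 9.98% were called higher and 1.79% lower in BDL+LIG against BDL, and 22.9% and 6.76% in BDL against sham. In BDL+LIG against BDL all 5 endothelial markers rose, with summed levels of 33.1 to 51.2 FPKM in BDL+LIG and 21.9 to 23.9 FPKM in BDL, and 1 of 6 Kupffer cell and macrophage markers rose (493 to 1022 FPKM in BDL+LIG, 394 to 542 FPKM in BDL). Of 5 red blood cell markers 2 fell (173 to 372 FPKM in BDL+LIG, 407 to 496 FPKM in BDL), and of 6 hepatocyte markers 0 were called by limma or voom, 0 also at an unadjusted p under 0.05 (37745 to 47223 FPKM in BDL+LIG, 32154 to 39246 FPKM in BDL). Of 5 stellate cell markers 2 rose (65.5 to 117 FPKM in BDL+LIG, 41.1 to 44.8 FPKM in BDL), and of the 2 tested neutrophil markers 1 fell (13.1 to 35.3 FPKM in BDL+LIG, 39.0 to 43.9 FPKM in BDL). In BDL against sham all 6 cholangiocyte markers rose, with sums of 406 to 602 FPKM in BDL and 19.9 to 36.0 FPKM in sham, as did all 6 Kupffer cell and macrophage markers (394 to 542 FPKM in BDL, 91.0 to 154 FPKM in sham) and both tested neutrophil markers (39.0 to 43.9 FPKM in BDL, 3.36 to 4.92 FPKM in sham). Of 5 red blood cell markers 4 rose and 1 fell (407 to 496 FPKM in BDL, 190 to 309 FPKM in sham), and of 5 stellate cell markers 3 rose (41.1 to 44.8 FPKM in BDL, 10.3 to 25.9 FPKM in sham). Of 6 hepatocyte markers limma called 1 lower and voom 4 (32154 to 39246 FPKM in BDL, 52106 to 61160 FPKM in sham), and of 5 endothelial markers 0 were called by limma or voom, 0 also at an unadjusted p under 0.05 (21.9 to 23.9 FPKM in BDL, 17.6 to 20.8 FPKM in sham). With sham library 1 left out, limma called 3 red blood cell markers higher, and 1 hepatocyte marker higher and 3 lower. Of all tested genes 37.2% were then called higher and 8.96% lower. Mitochondrially encoded transcripts took 5.86 to 8.58% of the summed FPKM in BDL+LIG, 8.30 to 9.76% in BDL and 10.6 to 16.8% in sham. The part of these differences in the ribosomal protein values was not tested.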

How the data were processed

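FPKM of 21470 genes in 9 liver libraries were used as the authors deposited them. Tools named in the submitters' processing notes are HISAT2 2.1.0, fastp and DESeq2, with the build GRCm39; for their use, the annotation and the counting, nothing is stated. Groups and replicate numbers come from the titles. Whole fragments were recovered from the FPKM steps for 19449 of 19449 genes above 0 in at least 2 libraries (within 0.02 fragments), and with them each gene's length. No 2 libraries of a group agreed within counting noise (median chi-square per gene 2.6 to 23.9).

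limma 3.58.1 (lmFit, eBayes with trend, R 4.3.3) was fitted to log2(FPKM + 1) of all 9 libraries, for genes of at least 1 FPKM in at least 3, with Benjamini-Hochberg adjustment within a comparison and a threshold of 0.05. The script was tested on simulated data. Coding lengths are the longest complete ones of GENCODE M21, matched by symbol for 81 of 83 genes (not Rpl6l and Rpl32l). Start windows are RefSeq's, GRCm38.p6.

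The members and lists were chosen with earlier results of these data known. Named are the 6 highest and 6 lowest members by mean, up to 8 called members per direction and comparison, the stalk genes, the paralogue pairs, Rps6, Rpl5, Rpl11, Rpl13a, Rps27a, genes outside the pattern, and up to 4 genes per list with the smallest p. Some genes named by this rule are not reported here singly.

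Alternatives were a pseudocount of 0.1, median-of-ratios scaling, no filter, TPM, a mean of 5 FPKM or more, quantile normalization, a total without the 20 most abundant genes, 2 groups alone, a replicate block, removal of a length trend (loess, span 0.4), voom on the recovered fragments, and each library left out. Values of the other gene lists and markers without sham library 1 were added after the data were seen.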

Additional observations from a re-analysis of the deposited data

How the results depend on the processing

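For BDL+LIG against BDL (10 members called lower, 0 higher, median -0.25, gap to the median of genes of like length -0.22), the counts called lower were 4 without the filter, 5 as TPM, 37 with the 2 groups alone, 5 with the replicate block, and 3 with 1 higher after removal of the length trend. The median was -0.47 with median-of-ratios scaling, -0.10 as TPM, -0.16 with quantile normalization, -0.12 without the 20 most abundant genes and -0.0692 after removal of the length trend. The gap to genes of like length was -0.26, -0.0122 and -0.0767 with median-of-ratios scaling, quantile normalization and the length trend removed. With 1 library left out, 0 to 33 were called lower and 0 higher, the median was -0.28 to -0.24 and the gap -0.26 to -0.21. The share differed by -0.21 percentage points, by -0.41 without the 20 most abundant genes, by -0.31 in fragments and by -0.26 to -0.16 with 1 library left out.

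For BDL against sham (7 higher, 0 lower, median 0.17, gap 0.06), the counts higher were 1 with median-of-ratios scaling, 16 as TPM, 16 with quantile normalization, 3 with the 2 groups alone and 4 with the replicate block, and 1 was lower after removal of the length trend. The median was -0.0789 with median-of-ratios scaling. With 1 library left out, 2 to 10 were higher and 0 to 5 lower, the median was 0.01 to 0.28 and the gap -0.10 to 0.14. The gap was 0.24 with quantile normalization and 0.18 with the length trend removed. The share differed by 0.76, by 0.63 without the 20 most abundant genes, by 0.23 in fragments and by 0.44 to 0.96 with 1 library left out.

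For BDL+LIG against sham (4 higher, 8 lower, median -0.02, gap -0.09), the counts higher and lower were 0 and 35 with median-of-ratios scaling, 16 and 2 as TPM, 10 and 5 without the 20 most abundant genes, 10 higher with quantile normalization, 23 higher after removal of the length trend and 3 lower with the 2 groups alone. The median was -0.50 with median-of-ratios scaling and 0.22 as TPM, and the gap 0.23 with quantile normalization. With 1 library left out, 4 to 6 were higher and 4 to 35 lower, the median was -0.25 to 0.0417 and the gap -0.32 to -0.0457. The share differed by 0.55, by 0.22 without the 20 most abundant genes, by -0.0775 in fragments and by 0.22 to 0.74 with 1 library left out. In this comparison the sign changed in 32 of the 81 members with median-of-ratios scaling, 20 as TPM and 19 without sham library 1, in BDL against sham in 47, 5 and 30, and in BDL+LIG against BDL in 11, 13 and 0. A changed sign went with a call in 6 cases. In BDL against sham this was Rpl34, to -0.32 without sham library 1. In BDL+LIG against sham it went to 0.35 for Rpl32 with the length trend removed, for Rpl39 to -0.36 without sham library 1 (-0.36 to 0.25 over the libraries left out), and for Rps4x to -0.37, Rps6 to -0.46 and Rpl10a to -0.0285 with median-of-ratios scaling. The cause was not tested. The replicate block left the counts of this comparison at 4 and 8, the numbers pair no libraries by the labels, deviations of same-numbered libraries correlated at -0.13 to 0.29, and of 18 matches of a library to a group 10 were best with its own number. A group left with 2 libraries was assumed to vary like the others.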
